A study of Mus musculus with 7 samples.

Results

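Transcripts of the epidermal growth factor (EGF) receptor system were followed in mouse embryonic fibroblasts (MEFs) under 6 kinds of environmental stress. The 10 genes were chosen by name, as the ligands Hbegf, Ereg, Areg, Tgfa and Nrg1, the receptors Egfr and Erbb2, the receptor inhibitor Errfi1, and Adam17 and Adam10, the proteases that shed the ligands, out of 49382 genes in the table. MEFs are primary cells grown out of minced embryos, here wild type and, per the labels, from embryonic day 13.5 to 14.4 (the study's methods give a slightly later upper limit), with the head and fetal liver removed. The 7 RNA-seq libraries comprised 1 of untreated control cells, 1 of oxidative stress (10 μM sodium arsenite for 3 h), 1 of osmotic stress (100 mM added NaCl for 3 h), 1 of endoplasmic reticulum (ER) stress (1 μM thapsigargin for 10 h), and 1 each of glucose depletion, glutamine depletion and hypoxia (0.1% oxygen), all for 10 h. All conditions were set against the same control library, for which the labels give no time of harvest. With 1 library per condition there is no replicate error, so no difference below carries a p-value.

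Ligands of the EGF family are made as membrane-anchored precursors, and signal to neighbouring cells once metalloproteases of the ADAM family cut them loose. HB-EGF (encoded by Hbegf), amphiregulin (Areg), epiregulin (Ereg) and TGF-alpha (Tgfa) bind the EGF receptor (Egfr), whereas neuregulin 1 (Nrg1) binds ERBB3 and ERBB4. ERBB2 (Erbb2) has no known ligand and works as the partner of the others. MIG6 (Errfi1) binds the kinase domain of the active receptor and blocks it, and its gene is itself turned on by the signal. Fibroblasts both express the receptor and make several of its ligands.

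The values were TPM, the number of transcripts of a gene per 1000000 transcripts in the library, scaled by transcript length, so that levels of different genes can be set side by side. Each library summed to 1000000 TPM, with 19819 to 21154 genes above 0, and the read depth behind the values is unknown. A log2 change is log2(TPM + 1) of a condition minus that of the control, and a gene is said to rise or fall where this exceeds 2-fold. For genes near 1 TPM or lower, this understates the change. Genes were kept where their level averaged 2 TPM or more, which held for 12909 genes and for 9 of the 10 members, Tgfa being left out at a mean of 1.81 TPM. The kept genes as a whole were shifted by a median log2 change of -0.16 under oxidative stress and -0.12 under osmotic stress, and by less than 0.1 elsewhere. Relative to these medians the oxidative stress values of Hbegf, Ereg, Areg and Errfi1 would be 2.33, 2.51, 2.11 and 2.12. The 10 fibroblast markers summed to between 13858 and 16304 TPM in all libraries but that of ER stress, which had 8766 TPM, and in such bulk samples fewer cells of a type and less RNA per cell cannot be told apart. Of 8 epithelial markers, 6 (Epcam, Cdh1, Krt5, Krt14, Esrp1 and Grhl2) were under 1 TPM in every library, as were all 5 markers of skeletal muscle. Of 6 macrophage markers Ptprc and Adgre1 were under 1 TPM in every library, while Cd68 was at 5.26 to 9.77 TPM, Lyz2 and Csf1r at most 2.23 and 2.25 TPM, and Itgam at 2.93 TPM in osmotic stress and at most 0.0602 TPM elsewhere. The 6 summed to 6.76 TPM in ER stress to 16.6 TPM in osmotic stress, and 5 endothelial markers, of which Cdh5 was under 1 TPM throughout, to 4.09 to 9.07 TPM. By the study's methods, MEFs were sorted before use to exclude macrophages, and unsorted MEFs were used only where noted. The part of any remaining cells of these other types in the values of the members was not tested.

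Hbegf, Ereg, Areg and Errfi1 rose together in the oxidative stress and the glutamine depletion libraries, and Egfr rose in glutamine depletion as well. Erbb2, Adam17 and Adam10, by contrast, stayed within 2-fold of the control in all 6 conditions. In oxidative stress 4 of the 9 kept members rose and 0 fell, where 3.94% of all kept genes rose and 4.85% fell. Glutamine depletion gave 5 up and 0 down, against 3.21% up and 3.21% down. In ER stress the members that rose were 2, namely Areg and Ereg, with 0 down, against a background of 8.6% up and 11.0% down. Osmotic stress raised Ereg alone, 1 of 9, where 3.08% of kept genes rose and 8.76% fell. Ereg was also the member that fell in hypoxia, 1 of 9, with 0 up, against 2.64% of kept genes down and 3.57% up. In glucose depletion 0 members rose and 0 fell, where 1.83% rose and 2.41% fell. Areg passed the expression filter only through the libraries in which it was high, so that its place in these counts was partly set by the filter. Without it, at a minimum mean of 10 TPM, 3 of 8 members rose in oxidative stress, 4 in glutamine depletion and 1 in ER stress. Of all genes kept at that minimum, 5.47%, 4.04% and 17.1% were past 2-fold in either direction in these conditions. The median log2 change of the 9 members was 1.13 in glutamine depletion, 0.46 in osmotic stress, 0.44 in ER stress, 0.34 in oxidative stress and 0.18 in glucose depletion, and 0.00 in hypoxia. Because the conditions share the control library, a control value that is low by chance would raise a gene in all of them. A high one would lower it in all of them.

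**Figure D1:**
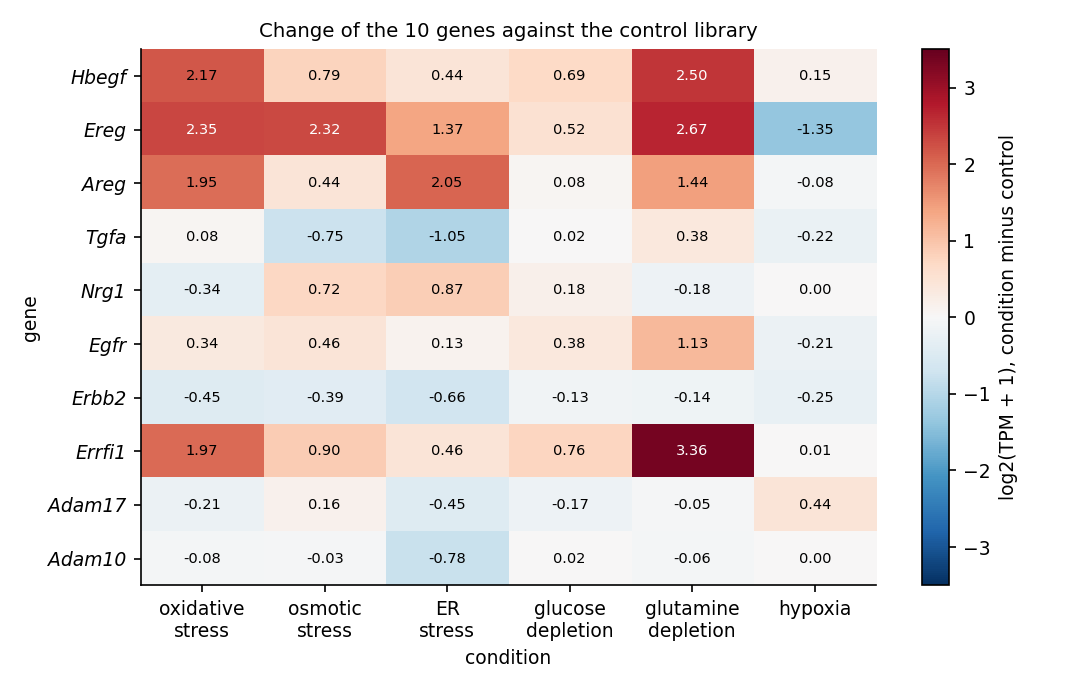
Log2 change of each of the 10 genes (rows) in each condition (columns), as log2(TPM + 1) minus that of the control library, with the value printed in each cell. Errfi1 in glutamine depletion has the highest value, 3.36, and Ereg in hypoxia the lowest, -1.35.

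**Figure D2:**
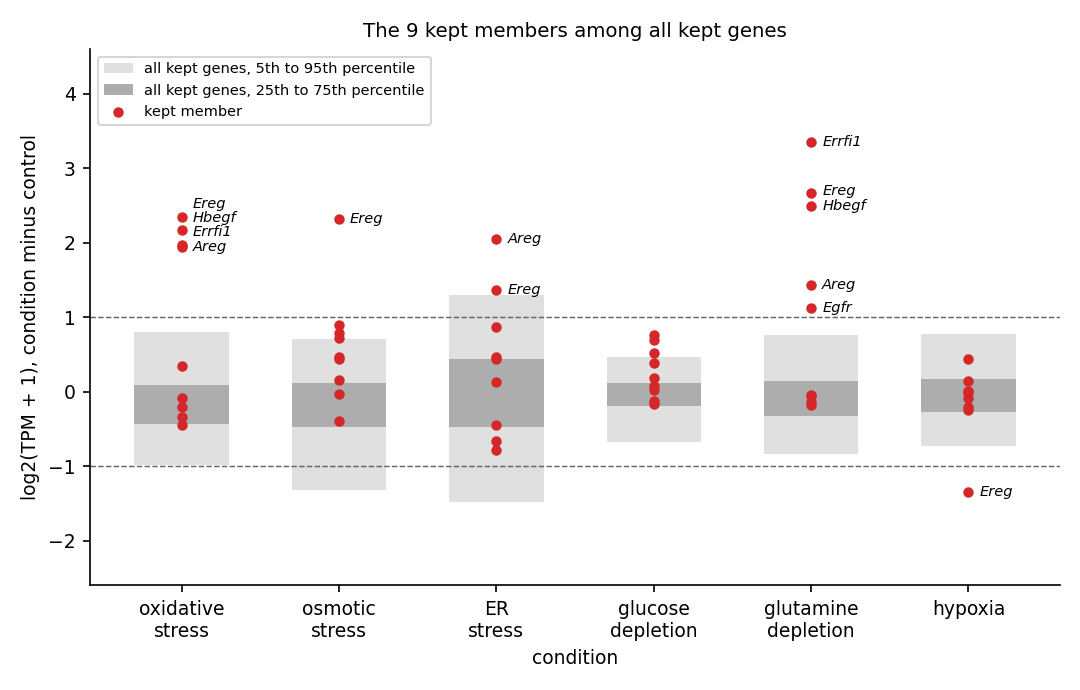
Log2 changes of the 9 kept members (red points, named where past 2-fold) over those of all 12909 kept genes in each condition (light band from the 5th to the 95th percentile, dark band from the 25th to the 75th). The dashed lines mark 2-fold in either direction, and the members of oxidative stress and glutamine depletion form an upper group well above the band and a lower group inside it.

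Hbegf was the most abundant ligand in every library. This gene, identifier ENSMUSG00000024486, lies on chromosome 18 from 36504927 to 36515805 on the minus strand (all positions are of GRCm38). It stood at 60.2 TPM in the control, 67.0 in hypoxia, 82.1 in ER stress, 97.8 in glucose depletion, 105 in osmotic stress, 275 in oxidative stress and 346 in glutamine depletion. The control had the lowest value of the 7, and a wide gap separated oxidative stress and glutamine depletion from the other 5 libraries. In linear terms the ratio to the control was 4.57 in oxidative stress and 5.74 in glutamine depletion. The log2 changes of 2.17 and 2.50 placed Hbegf at rank 225 and rank 110 of the 12909 kept genes ordered from the highest rise. The remaining log2 changes were 0.79 in osmotic stress, 0.69 in glucose depletion, 0.44 in ER stress and 0.15 in hypoxia. Even at 0.69 the gene ranked 362 in glucose depletion, the condition with the fewest genes past 2-fold.

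Ereg varied most of all members, by 18.9-fold between its lowest and its highest library. It lies on chromosome 5 from 91074622 to 91093646 on the plus strand (ENSMUSG00000029377), and encodes a ligand of both EGFR and ERBB4. Its levels were 5.74 TPM in hypoxia, 16.2 in the control, 23.8 in glucose depletion, 43.5 in ER stress, 85.3 under osmotic stress, 86.8 under oxidative stress and 108 in glutamine depletion. Ereg was therefore the member that responded to the largest number of conditions, with 4 above the control by more than 2-fold and 1 below it. The log2 changes were 2.67 in glutamine depletion, 2.35 in oxidative stress, 2.32 in osmotic stress, 1.37 in ER stress, 0.52 in glucose depletion and -1.35 in hypoxia, the last being -0.98 with a pseudocount of 5 TPM. Osmotic stress distinguished Ereg from Hbegf, since the ratio of Ereg to its control was 5.25 there and that of Hbegf 1.74. Against the median of the other 6 libraries in place of the control, the ER stress value of Ereg was -0.06, so that its rise there rests on the control as the reference. A gene on the opposite strand (ENSMUSG00000107350, annotated as antisense) shares 141 of the 4128 exon bases of Ereg, and the methods state no strand setting for the quantification, so that reads from these bases cannot be assigned to either gene. That gene was listed at 6.52 TPM in the control, 5.66 in hypoxia, 1.75 in ER stress and at most 16.8 TPM, in osmotic stress.

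Areg had the lowest control level of the 5 ligands among the members, and rose in ER stress as well as in oxidative stress and glutamine depletion. Its 7 levels were 0.448 TPM in hypoxia, 0.532 in the control, 0.617 in glucose depletion, 1.07 in osmotic stress, 3.15 in glutamine depletion, 4.93 in oxidative stress and 5.33 in ER stress. The 3 highest libraries stood apart from the 4 at about 1 TPM or below, and the mean of all 7 was 2.30 TPM. Its log2 changes of 2.05 in ER stress, 1.95 in oxidative stress and 1.44 in glutamine depletion depend on the pseudocount, and with 5 TPM in place of 1 TPM they were 0.90, 0.84 and 0.56, none past 2-fold. Areg is best known from epithelia, and the 8 epithelial markers summed to 12.5 TPM in ER stress, the highest of the 7 libraries, against 6.34 TPM in the control. Most of this was Krt18, at 10.6 TPM in ER stress and 5.56 TPM in the control, and its part in the Areg value was not tested. The order of conditions was not that of Ereg, since ER stress was the highest library for Areg, while for Ereg 3 others were above it.

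Areg lies next to Ereg in the genome, from 91139599 to 91148432 on the plus strand of chromosome 5 (ENSMUSG00000029378), 46.0 kb beyond its end. Epgn, which encodes the ligand epigen, lies 39.4 kb before Ereg, and Btc, which encodes betacellulin, 209 kb beyond Areg. These neighbours stayed near 0. Epgn was at 0 TPM in the control and at most 0.685 TPM, in ER stress, while Btc was at 0.705 TPM in the control, 0.0687 in ER stress and 1.01 in oxidative stress. Of the other ligands of the family, Egf reached 1.04 TPM in ER stress from 0.214 in the control, Nrg4 at most 0.657, Nrg2 at most 0.252 and Nrg3 at most 0.0455 TPM. None of these 6 genes passed the expression filter, and no direction was read from differences between single libraries at such levels.

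**Figure D3:**
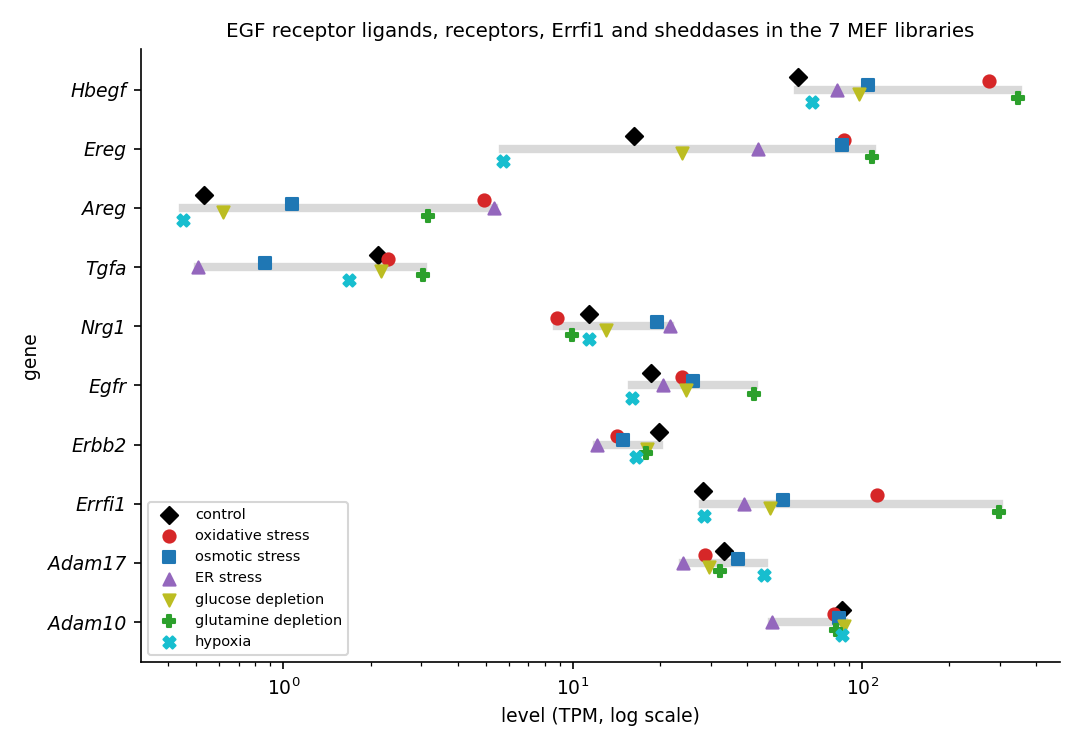
Level of each gene (rows) in TPM on a log axis, with 1 symbol per library and a grey bar from the lowest to the highest, the symbols being shifted vertically only to keep them apart. Hbegf, Ereg, Areg, Errfi1 and Tgfa have long bars with glutamine depletion or ER stress at the upper end, that of Tgfa running from 0.506 to 3.05 TPM. Erbb2, Adam17 and Adam10 have short ones.

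Summed over the 4 ligands of EGFR among the members, the transcript level was 79.1 TPM in the control, 74.9 in hypoxia, 124 in glucose depletion, 132 in ER stress, 192 under osmotic stress, 369 under oxidative stress and 460 in glutamine depletion. The make-up of this sum moved as well as its size. Hbegf held 76.1% of it in the control, 74.5% under oxidative stress and 75.1% in glutamine depletion. In osmotic stress Hbegf held 54.6% and Ereg 44.4%. In hypoxia, on the other hand, the share of Ereg was 7.67% and that of Hbegf 89.5%. Areg reached its largest share, 4.06%, in ER stress. The level of Hbegf over that of Ereg accordingly ran from 1.23 in osmotic stress to 11.7 in hypoxia, with 3.71 in the control.

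**Figure D4:**
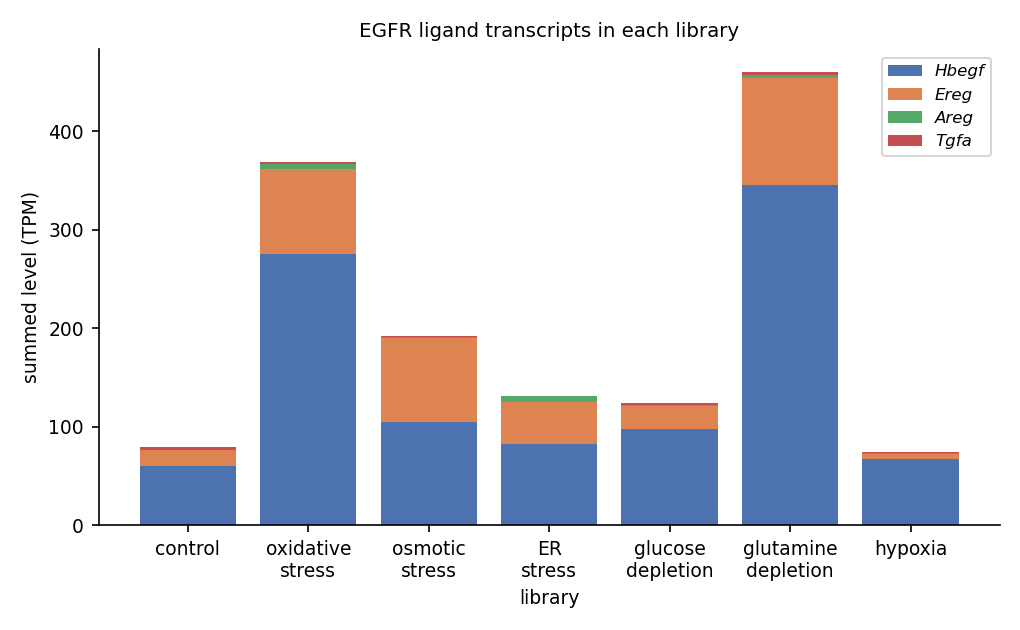
Summed level of Hbegf, Ereg, Areg and Tgfa (stacked, TPM) in each of the 7 libraries. The bars of oxidative stress (369 TPM) and glutamine depletion (460 TPM) are the tallest, and that of osmotic stress (192 TPM) has the largest share of Ereg.

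Tgfa, on chromosome 6 from 86195223 to 86275719 on the plus strand (ENSMUSG00000029999), was at 3.05 TPM or less in every library. It was at 2.12 TPM in the control, 2.17 in glucose depletion, 2.29 in oxidative stress, 3.05 with glutamine depletion, 1.69 in hypoxia, 0.861 in osmotic stress and 0.506 in ER stress. Glutamine depletion was the highest library and oxidative stress the next, as for Hbegf and Ereg. The libraries of osmotic and ER stress were the lowest, in which Ereg was above the control. At such levels no pattern was read from differences between single libraries. Its log2 change in ER stress was -1.05, and -0.37 with a pseudocount of 5 TPM. Since Tgfa was below the filter, it was not counted among the members that fell.

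For Nrg1, which spans more than any other member on chromosome 8 from 31814551 to 32884029 on the minus strand (ENSMUSG00000062991), the highest libraries were ER stress with 21.8 TPM and osmotic stress with 19.5 TPM. The other levels were 13.1 TPM in glucose depletion, 11.4 in the control, 11.4 in hypoxia, 9.94 in glutamine depletion and 8.81 in oxidative stress. Oxidative stress and glutamine depletion, where the EGFR ligands Hbegf and Ereg were highest, thus held the lowest values of Nrg1. The log2 changes there were -0.34 and -0.18, both between the 25th and the 75th percentile of all kept genes. With log2 changes of 0.87 in ER stress and 0.72 in osmotic stress Nrg1 did not pass 2-fold in any condition. Its own receptors were close to 0, with Erbb3 at 0.0898 to 0.224 TPM and Erbb4 at 0.0138 to 0.360 TPM over the 7 libraries. Among markers of Schwann cells and neurons, which are known sources or targets of neuregulin, Sox10 and Elavl3 were under 1 TPM in every library, while in ER stress Tubb3 rose from 26.0 to 127 TPM and S100b fell from 2.02 to 0.275 TPM.

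The 2 receptors of the system that were expressed differed in their response. Egfr (chromosome 11, 16752203 to 16918158, plus strand, ENSMUSG00000020122) was at 16.04 TPM in hypoxia, 18.7 in the control, 20.5 in ER stress, 23.8 in oxidative stress, 24.6 in glucose depletion, 26.1 in osmotic stress and 42.2 in glutamine depletion. The glutamine depletion library was the highest, and the other 6 ran from 16.04 to 26.1 TPM. In glutamine depletion the log2 change was 1.13, rank 342 of the kept genes, but 0.99 with a pseudocount of 5 TPM and 0.90 against the median of the other 6 libraries. Erbb2 (chromosome 11, 98412470 to 98437716, plus strand, ENSMUSG00000062312) was highest in the control, at 19.8 TPM, and below it in all 6 conditions, at 18.0 in glucose depletion, 17.8 in glutamine depletion, 16.5 in hypoxia, 14.9 in osmotic stress, 14.2 in oxidative stress and 12.2 TPM in ER stress. None of these was past 2-fold, and the lowest log2 change was -0.66, in ER stress. The level of Egfr over that of Erbb2 was 0.943 in the control, 0.971 in hypoxia and between 1.37 and 2.36 in the other 5 conditions.

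Errfi1 had the largest single change of the 10 genes. It lies on chromosome 4 from 150853919 to 150868892 on the plus strand (ENSMUSG00000028967). The levels were 28.1 TPM in the control, 28.4 in hypoxia, 39.0 in ER stress, 48.2 in glucose depletion, 53.4 in osmotic stress, 113 in oxidative stress and 298 in glutamine depletion. This is the same order of the 7 libraries as that of Hbegf. Glutamine depletion stood above oxidative stress, and both above the other 5 libraries. The ratio to the control was 10.6 in glutamine depletion and 4.02 in oxidative stress, with log2 changes of 3.36, rank 72 of the kept genes, and 1.97, rank 244. In osmotic stress the log2 change was 0.90, and 1.02 relative to the median of all kept genes, so that its side of the 2-fold line depended on the centring. Set against the receptor it inhibits, the Errfi1 level was 1.505 times that of Egfr in the control, 1.77 times in hypoxia, 4.73 times in oxidative stress and 7.06 times in glutamine depletion.

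Promoter sequences were available for 7 of the 10 members, in 8 windows of RefSeq on GRCm38.p6 that run from 250 bases before to 50 bases after an annotated start. Ereg, Hbegf and Nrg1 had none. The windows were searched on both strands for the cAMP response element (TGACGTCA), the AP-1 site (TGANTCA), the antioxidant response element (TGACNNNGC), the CHOP and ATF4 element (TGATGNAA), the hypoxia response element (ACGTG), the TEAD site (GGAATG) and the TATA box (TATAAA). The cAMP response element is the site of CREB and ATF factors. It was found in 2 member windows, those of Areg and of the downstream start of Errfi1, and in 1.79% of all 32851 windows. Both windows also held a TATA box, and 0.17% of all windows hold these 2 motifs in any order. The 250 bases before each of these 2 starts are shown because Areg and Errfi1 rose together in oxidative stress and glutamine depletion, with both motifs in capitals, 5′ to 3′ on the plus strand. For Areg they are chr5:91139349-91139598, and for Errfi1 chr4:150854820-150855069.
Areg: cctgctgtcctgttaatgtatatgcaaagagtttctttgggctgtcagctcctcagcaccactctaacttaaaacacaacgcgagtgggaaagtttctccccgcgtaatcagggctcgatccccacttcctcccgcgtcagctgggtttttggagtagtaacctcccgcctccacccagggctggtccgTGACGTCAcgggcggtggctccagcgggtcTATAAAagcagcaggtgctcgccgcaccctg
Errfi1: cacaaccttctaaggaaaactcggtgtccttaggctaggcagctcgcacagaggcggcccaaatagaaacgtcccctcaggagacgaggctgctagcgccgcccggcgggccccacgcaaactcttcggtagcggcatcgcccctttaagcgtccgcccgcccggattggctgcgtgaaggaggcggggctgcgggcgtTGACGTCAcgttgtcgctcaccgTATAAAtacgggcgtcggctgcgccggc
Counted from the start, the element began at position -61 in Areg and -51 in Errfi1, and the TATA box at -31 and -28. The upstream start of Errfi1 and the windows of Egfr, Tgfa, Erbb2, Adam17 and Adam10 held neither motif. The AP-1 site, at 7.81% of all windows, the antioxidant response element, at 12.4%, and the CHOP and ATF4 element, at 3.97%, were in none of the 8. The hypoxia response element, at 19.6% of all windows, was in that of Adam10 and, overlapping the end of the cAMP response element, in the downstream window of Errfi1. The TEAD site, at 14.7%, was in the window of Erbb2 and the upstream one of Errfi1. Of 337 kept genes with the cAMP response element in a window, 3.56% rose in oxidative stress and 2.67% in glutamine depletion. Of all kept genes with a window, 1.7% and 1.76% did. Of the 33 with both this element and a TATA box, 4 rose in each condition, or 12.1%. In oxidative stress 3 of them fell (9.09%) and in glutamine depletion 0, where 3.33% and 1.8% of all kept genes with a window fell. Areg and Errfi1, which were shown because they rose in these conditions, are among the 4 in each, so this share was partly set by that choice. In ER stress 4 of the 33 rose and 4 fell, where 7.08% and 9.46% of all kept genes with a window did. These matches are a description of the sequence, binding was not measured, and a part of the motifs in the rises was not tested.

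The sheddases Adam17 and Adam10 were the steadiest members together with Erbb2. Adam17, the main sheddase of HB-EGF, amphiregulin, epiregulin and TGF-alpha, lies on chromosome 12 from 21323509 to 21373632 on the minus strand (ENSMUSG00000052593). Its levels were 24.1 TPM in ER stress, 28.6 in oxidative stress, 29.6 with glucose depletion, 32.3 in glutamine depletion, 33.4 in the control, 37.3 in osmotic stress and 45.7 in hypoxia. Hypoxia was highest, with a log2 change of 0.44. Iah1, on the opposite strand, shares 311 of the 7154 exon bases of Adam17 and had a log2 change of 0.46 in hypoxia, and its part in the Adam17 value was not tested. Adam10 (chromosome 9, 70678997 to 70780229, plus strand, ENSMUSG00000054693) was at 49.0 TPM in ER stress and between 80.2 and 86.3 TPM in the other 6 libraries. The ER stress value, a log2 change of -0.78, was the only one of Adam10 more than 0.1 from 0. Adam10 was the more abundant of both proteases in every library, at 1.86 times Adam17 in hypoxia to 2.92 times in glucose depletion. So the libraries in which ligand transcripts were highest, oxidative stress and glutamine depletion, had sheddase levels within 0.21 log2 units of the control.

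Timp3, Reck and Timp2, which encode inhibitors of metalloproteases, fell in ER stress. They belong to a list of 22 genes that bear on shedding, with 19 kept, which comprised other ADAMs, the inhibitors of metalloproteases (Timp1 to Timp4 and Reck), the iRhoms that carry ADAM17 to the surface (Rhbdf1, Rhbdf2) with their partner Frmd8, the tetraspanins that escort ADAM10, the convertases Furin and Pcsk5, which remove the prodomain, and Cnih4. In ER stress 5 of the 19 fell and 1 rose, where 11.0% of all kept genes fell and 8.6% rose, and the list had a median log2 change of -0.30 against 0.00 for all kept genes. The 10 fibroblast markers had a median of -0.86 in the same library, with 3 down, and their part in these falls was not tested. Timp3, the inhibitor of ADAM17 and ADAM10 that is held in the matrix, fell from 531 to 122 TPM, a log2 change of -2.11. Reck, a membrane-anchored inhibitor, fell from 21.4 to 5.52 TPM (-1.78), and Timp2 from 1520 to 536 TPM (-1.50). Among the tetraspanins Tspan5 fell from 37.0 to 13.3 TPM (-1.41), and Tspan15 rose from 2.86 to 9.75 TPM (1.48). Furin was the fifth gene that fell (-1.11). Glutamine depletion raised Timp3 alone, to 1161 TPM (1.13), and osmotic stress lowered Adam19 alone, from 57.5 to 23.3 TPM (-1.27). In oxidative stress, glucose depletion and hypoxia 0 of the 19 rose and 0 fell. The shares of all kept genes that rose and fell in each condition are those given above for the members. Rhbdf1 and Rhbdf2 stayed within 0.34 log2 units of the control throughout.

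Of 15 genes that restrain ERBB receptors or take them out of the membrane, 14 were kept, and 4 rose in glutamine depletion with 0 down, where 3.21% of all kept genes rose. The median log2 change was 0.33 for the list and -0.09 for all kept genes. Cblb, a ubiquitin ligase that sends the receptor for degradation, was at 10.9 TPM in the control, 38.6 in glutamine depletion (1.73), 24.8 in oxidative stress (1.11) and 26.3 in ER stress (1.19). Its relative Cbl was at 12.1 TPM in the control and 25.3 in glutamine depletion, at the 2-fold line with 1.00. Spry2, a feedback inhibitor below the receptors, was at 19.6 TPM in the control and 68.0 in osmotic stress (1.74), with 1.04 in oxidative stress and 1.02 in glutamine depletion. Ptpn1, a phosphatase of the receptor, rose in glutamine depletion from 45.9 to 94.5 TPM (1.03). In osmotic stress Socs4 fell from 9.41 to 3.999 TPM (-1.06). Oxidative stress gave 2 up and 0 down, against 3.94% and 4.85% of all kept genes, and osmotic stress 1 up and 1 down, against 3.08% and 8.76%. In ER stress 1 of 14 rose and 0 fell, where 8.6% of all kept genes rose and 11.0% fell. The median of the list was nevertheless 0.47 there, against 0.00 for all kept genes. In glucose depletion and hypoxia 0 rose and 0 fell, with list medians of 0.09 and 0.02, against -0.02 and -0.05 for all kept genes. Lrig1, which like Errfi1 is a receptor inhibitor induced by the signal, had log2 changes between -0.32 and 0.27.

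**Figure D5:**
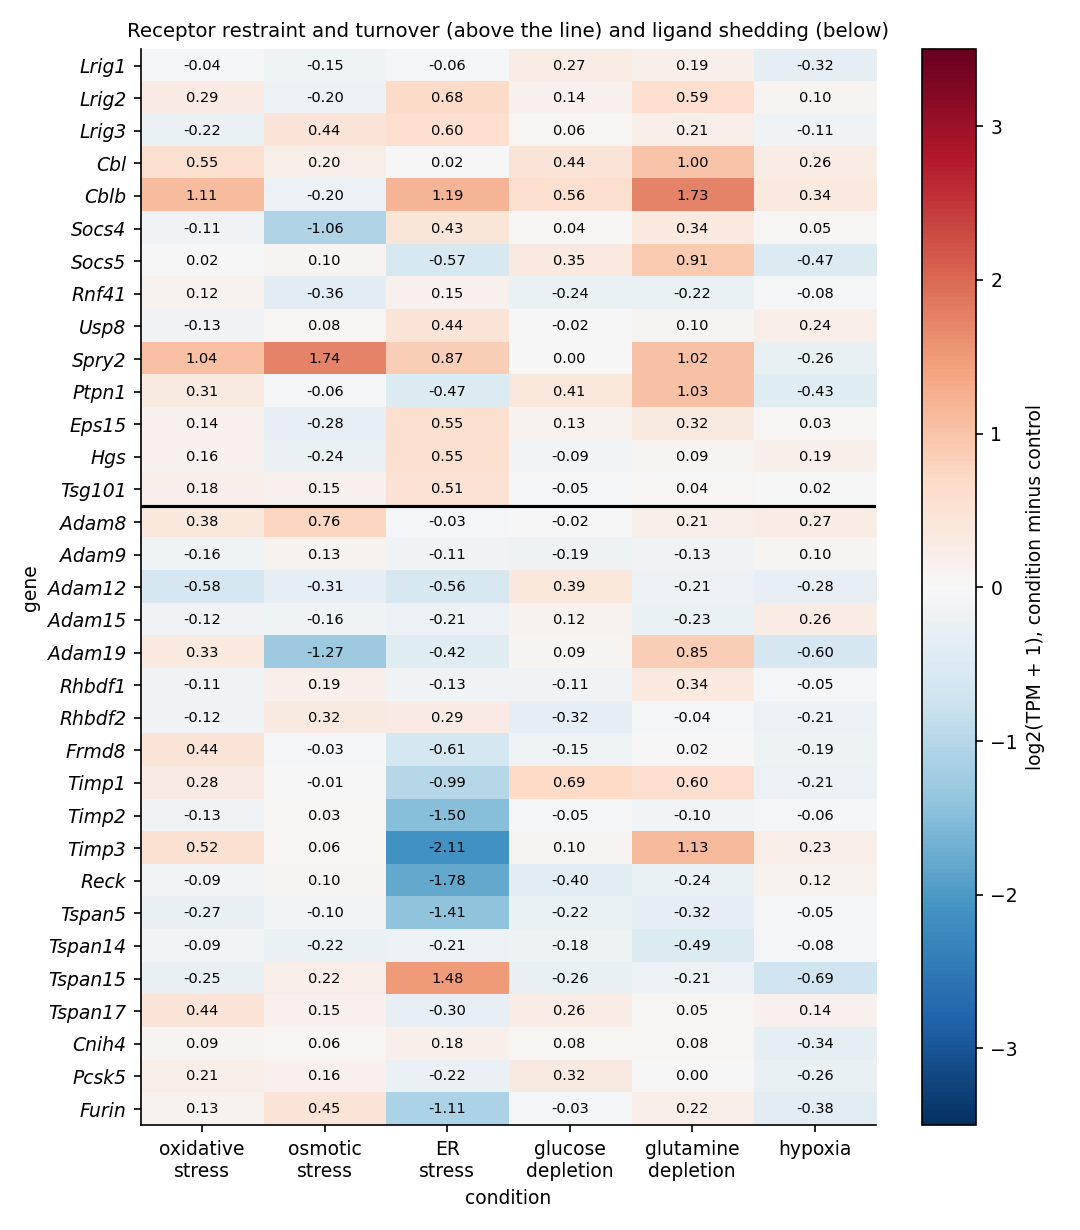
Log2 change against the control library of the kept genes that restrain or remove ERBB receptors (above the black line) and of those that bear on ligand shedding (below it), by condition, with each value printed. Cblb, Spry2 and Timp3 have the strongest colours among the genes that rose in glutamine depletion or osmotic stress, and the ER stress column holds most of the falls below the line.

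Genes that EGF is known to induce through the kinase ERK were read from the same libraries. Of 16 such genes, all kept, 11 rose in glutamine depletion and 10 in oxidative stress, where 3.21% and 3.94% of all kept genes rose. Of the same list 4 rose in osmotic stress (3.08% of all kept genes) and 4 in ER stress (8.6%), 1 rose in hypoxia (3.57%) and 1 fell there (2.64%), and 0 moved past 2-fold in glucose depletion (1.83% up). The median log2 change was 1.33 in glutamine depletion and 1.15 in oxidative stress, and between -0.19 and 0.30 in the other conditions. Phlda1, a growth factor-induced gene, rose from 17.6 TPM to 114 TPM under oxidative stress and 71.9 TPM in glutamine depletion, and Dusp5, which encodes an ERK phosphatase, from 16.98 TPM to 58.7 and 61.8 TPM. Spred2, which restrains the pathway at RAF, had its highest level in glutamine depletion, 74.9 TPM against 18.5 in the control. In contrast, Ier3 was highest in osmotic stress, at 347 TPM against 52.9 in the control, and Myc in ER stress, at 265 TPM against 56.8. Dusp4 was at 11.2 TPM in the control and 36.4 in oxidative stress. The conditions with the most genes of this list past 2-fold were those in which Hbegf and Errfi1 rose. Signalling itself was not measured in these libraries, and a part of the ligands in these rises was not tested. The list was chosen with earlier results of these data known.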

How the data were processed

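RNA-seq libraries of MEFs (paired-end, from a stranded mRNA protocol) were quantified by the authors with kallisto, version 0.43.1 per the submitters' processing notes, at default settings against the GRCm38 cDNA transcripts of Ensembl, and deposited as 1 TPM value per gene, the total of its transcripts. TPM holds no read counts, so no counting error can be given. Each condition was compared with the control as a difference of log2(TPM + 1). The pseudocount and the 2-fold rule follow the study's methods. Symbols on several rows were counted once where the rows were identical and summed otherwise. Genes named from the pathway lists are the kept genes past 2-fold, at most the 6 with the largest change per list, and all other EGF family ligands and receptors. Those named beyond this rule (Furin, Lrig1, Rhbdf1, Rhbdf2, Cnih4, Gab1, Gab2, Iah1, the gene antisense to Ereg and single cell type markers) were picked with their values in view. The members, lists, motifs and rules were chosen with earlier results of these data known. Locations are from GENCODE M21. Likeness of patterns is the root mean square difference of log2(TPM + 1) over the 7 libraries, each gene centred on its mean. The scripts were tested on simulated data. Computation was in Python 3.11.15 with pandas 2.3.3 and numpy 2.4.6, and plots were drawn in matplotlib 3.10.9.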

Additional observations from a re-analysis of the deposited data

How the results depend on the processing

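Of 54 counts of members past 2-fold recomputed under 9 alternatives, 40 stayed within 1.5 times the reported count. With a 1.5-fold threshold 4 members changed in osmotic stress, 5 in ER stress (3 up and 2 down) and 2 in glucose depletion, in place of 1, 2 and 0. The shares of all kept genes past that threshold were 26.1%, 40.2% and 9.7%. With a 3-fold threshold 1 changed in ER stress, 3 in glutamine depletion and 0 in hypoxia, where 7.69%, 2.88% and 3.59% of all kept genes did. The pseudocount of 5 TPM gave 1 in ER stress, 3 in glutamine depletion and 0 in hypoxia, against 11.8%, 3.35% and 3.88% of all kept genes. Centring on the median of all kept genes gave 2 in osmotic stress, where 10.7% of all kept genes were past 2-fold. A mean of at least 10 TPM left 1 in ER stress, since it removes Areg, where 17.1% of all kept genes were past 2-fold. Against the median of the other 6 libraries the counts were 1 in ER stress, 1 in glucose depletion (Ereg, down) and 2 in hypoxia (Areg and Ereg, down). The shares of all kept genes past 2-fold were 17.9%, 3.7% and 6.12% there, and Areg was at only 0.448 TPM in hypoxia. With this reference the log2 change of Ereg in ER stress was -0.06, the 1 called value of a member that reversed. Of 300 values of single members under the alternatives that change neither threshold nor filter, 288 kept their side of 2-fold. Most were within 2-fold from the start, and such a value counted as kept even where its sign changed. For Hbegf in ER stress, 0.44 became -0.3 against the median of the other 6 libraries. The count in oxidative stress, 3 or 4, was within 1.5 times under all 9. The share of all kept genes past the threshold, 4.24% in glucose depletion to 19.6% in ER stress, was 9.7% to 40.2% at 1.5-fold, 2.86% to 7.69% at 3-fold and 2.61% to 11.8% with the pseudocount of 5 TPM. No paired analysis was possible because each condition has 1 library, and for the same reason no replicate could be left out. Depth is unknown, which limits Areg and Tgfa most.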

Other observations

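For each member that passed 2-fold, the 3 kept genes with the most similar pattern over the 7 libraries were taken, by root mean square difference of centred log2(TPM + 1). Nearest to Hbegf were Bdkrb2 (0.25), a bradykinin receptor gene, Noct (0.29) and Errfi1 (0.33). Errfi1 had Il11 (0.25), Hbegf (0.33) and Egr2 (0.33) as its nearest genes, and Il11 was at 46.2 TPM in glutamine depletion and 21.01 TPM in oxidative stress, from 2.86 TPM in the control. Areg lay nearest to Ifrd1 (0.19), Txnrd1 (0.26) and the ERK pathway inhibitor Spry4 (0.33). Txnrd1, which encodes a thioredoxin reductase, was at 205 TPM in the control, 634 in oxidative stress, 617 in ER stress and 468 in glutamine depletion. For Ereg the nearest were the pseudogene Gm14648 (0.56), Ptgs2 (0.63), which encodes the prostaglandin synthase COX-2, and Clcf1 (0.66), all farther off than those of the other members. The distance is not scaled to the range of a gene, which was widest for Ereg, so the distances of different members are not directly comparable. Ptgs2 was at 83.8 TPM in the control, 420 in osmotic stress and 489 in oxidative stress, but unlike Ereg it was not lower in hypoxia, at 105 TPM. Egfr had Crybg3 (0.12), Hipk2 (0.12) and Mamld1 (0.14) nearest to it.

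Of 24 genes of adaptors and kinases that carry the signal from ERBB receptors, all kept, 0 rose and 0 fell past 2-fold in 5 of the 6 conditions, where 4.24% (glucose depletion) to 19.6% (ER stress) of all kept genes did. Values short of 2-fold went both ways, as in ER stress, where the log2 change of the adaptor gene Gab2 was 0.98 and that of its relative Gab1 -0.79. Map2k1, which encodes the ERK kinase MEK1, rose in hypoxia, from 55.7 to 142 TPM, a log2 change of 1.34. The medians of this list were between -0.08 and 0.02 over the 6 conditions.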
